A study of Mus musculus with 8 samples.

Results

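Described here are 10 genes, of 12393 measured, that were listed as genes of the nervous system, muscle or the testis and that part CD44hi from CD44lo cells of mouse T cell lymphomas lacking Snf5. The genes are Cplx2, Neurog2, Nsg2, Nrep, Synpo, Pcp4, Art3, Sln, Sowaha and Tnp2. They were chosen by their measured difference in log2 intensity between CD44hi and CD44lo on these same arrays, so their differences below are a description and no test is attached to them. A probe set counted as theirs where its only gene symbol in the platform annotation is one of the 10, which gave 13 probe sets. The list has no numerical threshold.

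Per the labels, the cells came from stable T cell lymphoma lines. The missing protein, Snf5, is encoded by Smarcb1 and belongs to the core of SWI/SNF, which remodels chromatin. Every sample carries this deficiency, and no normal T cell and no Snf5-proficient lymphoma is among them, so the arrays do not show whether any of the genes is out of place in these cells. The samples are CD44hi cells (4 arrays) and CD44lo cells (4 arrays), purified by the surface level of CD44, a hyaluronan receptor of activated and memory T cells. The labels give no number of lines, no age and no deleting promoter, and do not say that replicates are separate cultures, so a p-value here covers the spread among arrays alone, and that spread could be technical.

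The genes serve unrelated tasks in their home tissues. Nerve terminals release transmitter when SNARE proteins pull a vesicle onto the membrane, with complexins gripping the assembled SNARE bundle, while proneural factors such as Neurog2 act much earlier and commit progenitors to a neuronal fate. In muscle, SERCA pumps return calcium to the sarcoplasmic reticulum and the small peptide sarcolipin (Sln) restrains them. In the testis, transition proteins such as Tnp2 displace histones from spermatid chromatin before protamines take over.

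Upstream sequence was taken from RefSeq promoters (build GRCm38.p6), which held 9 starts for 6 of the 10 genes. The 250 bases before the start are shown for the 4 genes with a single start, 2 higher (Cplx2, Neurog2) and 2 lower (Pcp4, Tnp2) in CD44hi, to set genes that moved in opposite directions beside each other. Capitals mark 3 motifs searched on both strands: the core of the EBF site (CCCNNGGG), the E-box (CANNTG), which neurogenins and other basic helix-loop-helix factors bind, and the GATA site (GATAA).
Cplx2, chr13:54302306-54302555, plus strand: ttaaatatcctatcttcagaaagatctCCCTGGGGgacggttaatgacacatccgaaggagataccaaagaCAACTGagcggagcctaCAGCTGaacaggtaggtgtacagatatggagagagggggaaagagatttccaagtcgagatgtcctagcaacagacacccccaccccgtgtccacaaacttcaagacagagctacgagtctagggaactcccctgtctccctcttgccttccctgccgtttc
Neurog2, chr3:127632886-127633135, plus strand: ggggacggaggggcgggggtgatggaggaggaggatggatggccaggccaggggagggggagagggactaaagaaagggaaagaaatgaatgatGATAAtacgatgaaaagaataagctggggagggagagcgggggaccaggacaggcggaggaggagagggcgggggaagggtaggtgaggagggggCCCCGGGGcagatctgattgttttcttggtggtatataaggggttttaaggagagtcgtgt
Pcp4, chr16:96467356-96467605, plus strand: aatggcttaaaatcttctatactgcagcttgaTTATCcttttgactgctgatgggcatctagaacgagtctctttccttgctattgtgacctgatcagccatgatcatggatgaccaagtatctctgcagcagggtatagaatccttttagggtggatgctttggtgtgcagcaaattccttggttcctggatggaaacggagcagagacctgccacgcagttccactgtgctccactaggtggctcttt
Tnp2, chr16:10788656-10788905, minus strand: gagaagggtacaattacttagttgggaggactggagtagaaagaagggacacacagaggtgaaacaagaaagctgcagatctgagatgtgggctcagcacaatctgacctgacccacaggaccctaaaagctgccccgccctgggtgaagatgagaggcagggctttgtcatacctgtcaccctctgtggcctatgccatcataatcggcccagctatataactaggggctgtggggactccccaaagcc

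EBF and GATA sites were searched because the factor genes Ebf1 and Gata3 themselves parted the subpopulations. Ebf1 had a log2 difference of 6.58 and Gata3 one of -3.57 (CD44hi minus CD44lo). The EBF core began 223 bases before the Cplx2 start and 61 bases before the Neurog2 start. It was in 2 of the 9 starts, against 11.8% of 32841 starts of all genes. No start of Art3 or Nsg2, which were also higher in CD44hi, held it, so its presence did not follow the direction of the difference. The GATA site lay 156 bases before the Neurog2 start and 218 bases before the Pcp4 start. It was in 3 of the 9 starts, against 22.6% of all. An E-box was in 5 of the 9, against 66.2% of all, with a pair at 179 and 162 bases before the Cplx2 start. None of the 3 motifs was found in the Tnp2 stretch, and no capitals of the 4 stretches overlap between motifs. These matches describe letters and say nothing of binding.

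Intensities are given as log2 of the deposited values. The median of the bacterial and phage control probe sets of an array, which match no mouse transcript, lay between 4.55 and 4.68 in CD44hi and between 4.47 and 4.64 in CD44lo, and is used as the level of an absent transcript. Some of these controls are spiked in, and over the poly-A controls alone (Dap, Lys, Phe, Thr and Trp) the array medians lay between 3.95 and 4.11 in CD44hi and between 3.95 and 4.13 in CD44lo. Within a bulk RNA sample, fewer cells carrying a transcript and less transcript per cell cannot be told apart.

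With the brightest probe set of each gene, 5 genes were higher and 5 lower in CD44hi. The sizes ranged from 1.82 to 6.06 on the log2 scale, and group SDs from 0.12 to 0.72. The 4 CD44hi values lay entirely on one side of the 4 CD44lo values for all 10 brightest probe sets and for 12 of the 13 in all, a separation found for 10.3% of all genes. A difference of at least 4-fold was found for 9 of the 10, against 0.452% of all genes. Since this comparison chose the genes, nothing is read from these counts.

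**Figure D1:**
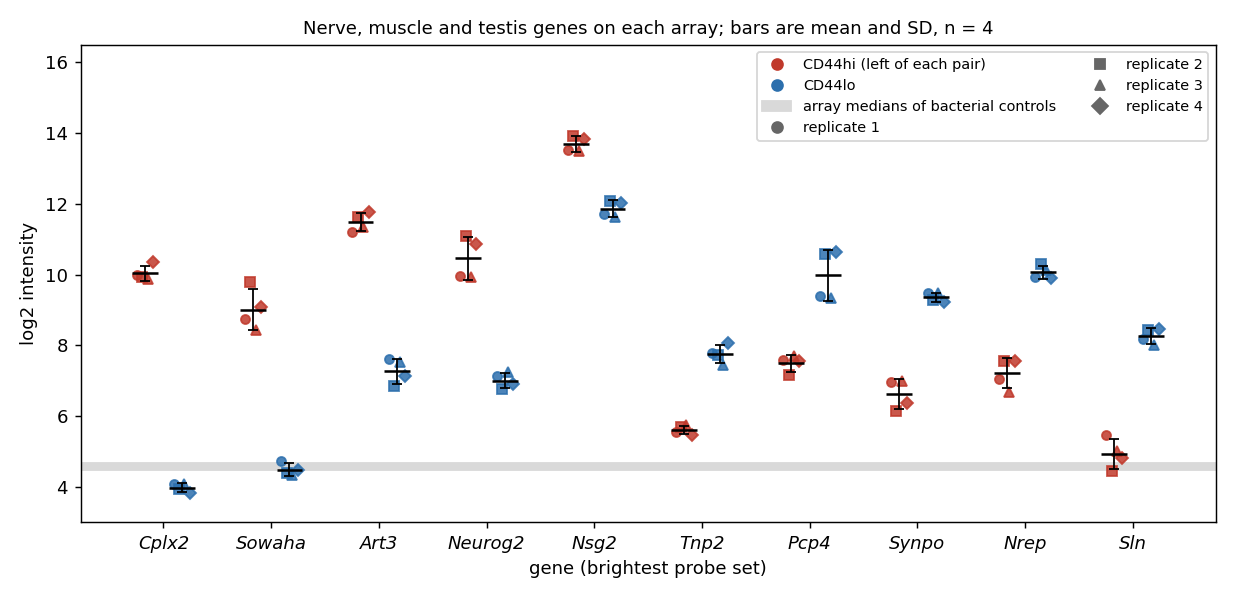
Log2 intensity of the brightest probe set of each of the 10 genes on every array, CD44hi in red to the left of CD44lo in blue, with symbols for the replicate number and bars for the mean and SD (n = 4). The grey band spans the array medians of the bacterial controls, 4.47 to 4.68; Cplx2 in CD44lo lies below it, and Sowaha in CD44lo and Sln in CD44hi lie near it.

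Among the nerve genes higher in CD44hi, Cplx2, which codes for complexin 2, stood furthest apart. Its values were 9.997, 9.94, 9.88 and 10.35 in CD44hi, against 4.08, 3.93, 4.07 and 3.84 in CD44lo. All 4 CD44lo arrays were at or below their own bacterial control median, so the transcript was not above background there. The log2 difference was 6.06 (SE 0.12), and with the CD44lo arrays set at their control medians CD44hi was at least 44.0-fold higher. Over the poly-A controls alone, 3 of the 4 CD44lo arrays were at or below the median and the difference set in this way was 6.0.

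Neurog2, the proneural transcription factor neurogenin 2, was above the controls in both subpopulations. It read 9.95, 11.09, 9.94 and 10.85 in CD44hi, against 7.13, 6.76, 7.25 and 6.89 in CD44lo. Means with SD over 4 arrays were 10.46 ± 0.60 in CD44hi, against 7.01 ± 0.22 in CD44lo, a log2 difference of 3.45 (SE 0.27) or 10.95-fold. CD44hi replicates 2 and 4 were about 1 log2 unit above replicates 1 and 3 (1.02 on average), while in CD44lo replicates 2 and 4 were the lower ones (-0.36).

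Nsg2, a neuronal protein of endosomes, was bright in both subpopulations, so its difference is one of degree. The arrays read 13.52, 13.92, 13.48 and 13.82 in CD44hi, against 11.71, 12.09, 11.63 and 12.03 in CD44lo. Replicates 2 and 4 were above replicates 1 and 3 by nearly the same amount in both, 0.37 in CD44hi and 0.39 in CD44lo. The log2 difference of 1.82 (SE 0.14, 3.54-fold) was accordingly even across replicate numbers, from 1.79 to 1.85.

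The nerve genes lower in CD44hi were Nrep, Synpo and Pcp4. Nrep, also known as P311 and described in regenerating neurons, read 7.05, 7.57, 6.68 and 7.56 in CD44hi, against 9.93, 10.29, 10.13 and 9.91 in CD44lo with probe set 1450839_at. No array of one group reached the other, and the log2 difference was -2.85 (SE 0.20). Its other probe set, 1436736_x_at, differed by -2.74 (SE 0.19), although the suffix x marks probes that can match other transcripts.

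Synpo codes for synaptopodin, an actin-associated protein of dendritic spines and of kidney podocytes. Probe set 1434089_at read 6.98, 6.16, 7.0005 and 6.38 in CD44hi, against 9.47, 9.28, 9.47 and 9.22 in CD44lo, a log2 difference of -2.73 (SE 0.19). Probe set 1427045_at did not part the subpopulations: it read 4.84, 4.83, 5.08 and 4.89 in CD44hi and 4.86, 4.997, 4.81 and 4.80 in CD44lo, a difference of 0.04 (SE 0.09) with overlapping groups. That probe set lay 0.32 above the array controls in CD44hi and 0.28 above them in CD44lo, so the difference attributed to Synpo rests on 1 of its probe sets.

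Pcp4, the calmodulin-binding peptide PEP-19 of Purkinje cells, varied most within a group. It read 7.57, 7.15, 7.70 and 7.55 in CD44hi, against 9.38, 10.57, 9.34 and 10.65 in CD44lo. The CD44lo arrays fell into a lower pair (replicates 1 and 3) and a higher pair (replicates 2 and 4), 1.25 apart, whereas in CD44hi replicates 2 and 4 were lower by 0.29 (-0.29). The mean log2 difference was -2.49 (SE 0.32).

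Of the muscle genes, Art3 was higher and Sln lower in CD44hi. Art3 codes for a membrane-anchored member of the ADP-ribosyltransferase family known from testis and skeletal muscle. It read 11.20, 11.63, 11.35 and 11.78 in CD44hi, against 7.60, 6.84, 7.52 and 7.12 in CD44lo. Every array was above the controls, and the log2 difference was 4.22 (SE 0.19, 18.6-fold).

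Sln was seen well above background in CD44lo with 1 of its probe sets. Probe set 1420884_at read 5.46, 4.45, 5.02 and 4.82 in CD44hi, against 8.18, 8.43, 8.002 and 8.46 in CD44lo. CD44hi lay on average 0.35 above the array controls, with 1 of 4 arrays at or below them, so the difference of -3.33 (SE 0.21) is measured against a group near background. The other, 1420883_at, read 4.62, 5.03, 4.65 and 5.06 in CD44hi and 5.26, 5.28, 5.11 and 5.07 in CD44lo. Its groups were apart by only 0.02, with a difference of -0.34 (SE 0.12).

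**Figure D2:**
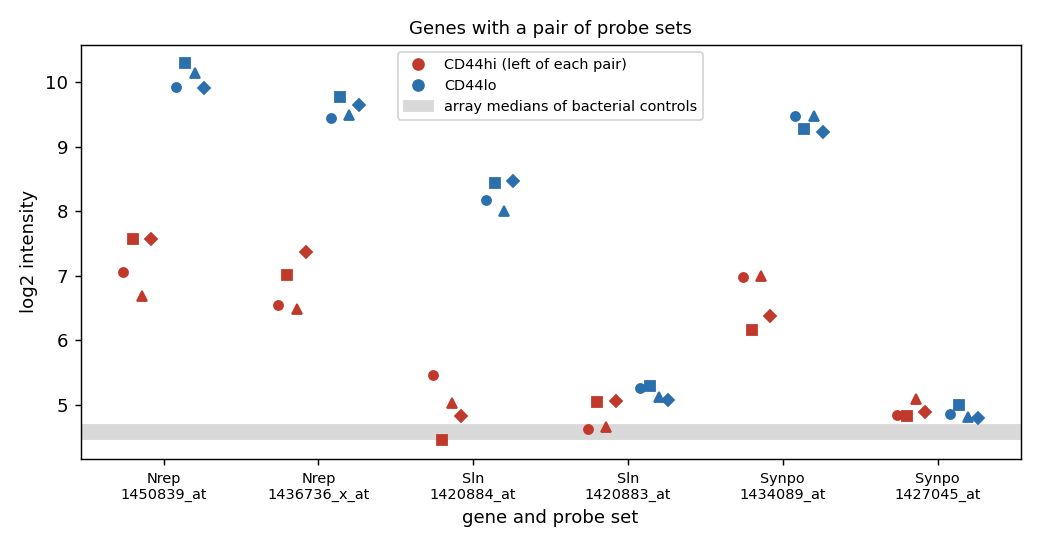
Log2 intensity on each array for both probe sets of Nrep, Sln and Synpo, CD44hi in red to the left of CD44lo in blue, symbols giving the replicate number as in the plot of all 10 genes and the grey band the array medians of the bacterial controls. The Nrep probe sets differed alike (-2.85 and -2.74), while the dimmer probe sets of Sln (-0.34) and Synpo (0.04) stayed near the controls.

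Sowaha, an ankyrin repeat protein gene whose usual tissue was not examined here, read 8.74, 9.79, 8.43 and 9.09 in CD44hi, against 4.74, 4.39, 4.33 and 4.47 in CD44lo. In CD44lo 3 of 4 arrays were at or below their bacterial control median and 0 of 4 at or below the poly-A median, so the transcript was at the edge of detection. The log2 difference was 4.53 (SE 0.26), or 4.40 with the dim arrays set at their control medians.

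Tnp2, the testis gene, was lower in CD44hi. Its arrays read 5.56, 5.69, 5.74 and 5.48 in CD44hi, against 7.77, 7.72, 7.45 and 8.06 in CD44lo, a log2 difference of -2.14 (SE 0.13, 4.39-fold). CD44hi lay 1.03 and CD44lo 3.17 above the array controls. Its probe set, 1422419_s_at, carries the suffix s, which marks probes shared by several transcripts, so the transcript behind the signal is uncertain.

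The difference was not equally large at every replicate number. For 7 of the 10 genes it was larger in size at numbers 2 and 4 than at numbers 1 and 3, which was so for 28.8% of all genes and for 40.3% of the 462 other genes that passed the test. Neurog2 differed by 2.83, 4.33, 2.69 and 3.96 at numbers 1 to 4. For Pcp4 the differences were -1.81, -3.42, -1.64 and -3.10, and for Sln they were -2.72, -3.99, -2.98 and -3.64. The exceptions were Nsg2, Nrep and Tnp2, and Nrep differed most at number 3 (-3.45) and least at number 4 (-2.34). The labels do not say what the numbers stand for, and this pattern was seen before it was counted, so it carries no test.

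**Figure D3:**
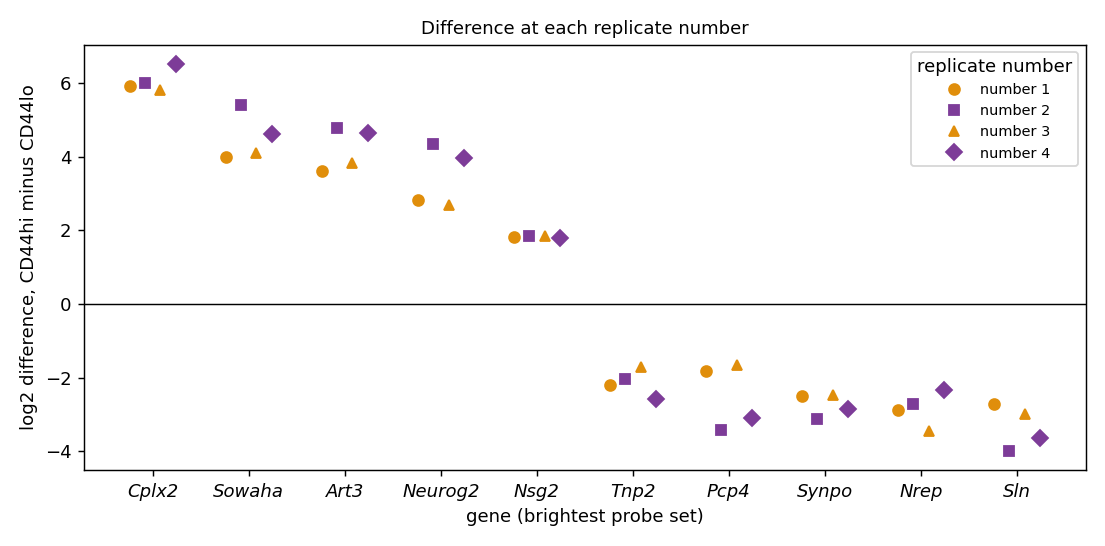
Log2 difference, CD44hi minus CD44lo, of the brightest probe set at each replicate number, with numbers 1 and 3 in orange and 2 and 4 in purple. Purple points lie further from 0 than orange ones in 7 of 10 genes, most widely for Pcp4 and Neurog2, while Nsg2 stays between 1.79 and 1.85.

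Genes of the same families and tissues were then examined, since the choice of the 10 genes did not use them. The lists were themselves drawn up with earlier results of these data known, so they are not independent of these data. In 15 lists of 250 genes, 225 were measured and 7 rose and 6 fell in CD44hi (limma with Benjamini-Hochberg adjustment, p under 0.05), or 5.78%. Over all genes 252 rose (2.03%) and 220 fell (1.78%), or 3.81%, so the lists were near the background. The median log2 difference was 0.02 over the listed genes and -0.0001 over all genes. Same-numbered arrays shared deviations, as did unlike numbers that are both odd or both even. With the number as a block 382 genes rose (3.08%) and 385 fell (3.11%), or 6.19%, beside 8 that rose and 9 that fell among the listed genes, or 7.56%. The listed calls were partly fragile: without CD44lo replicate 2 or 4 the rises numbered 3 and 2, and without CD44hi replicate 1 or 3 or CD44lo replicate 2 or 3 the falls numbered 3 each.

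None of the nearest relatives of the 10 genes passed the test. The complexin paralogs Cplx1 and Cplx3 were at 5.79 and 3.89 in CD44hi and at 5.71 and 3.91 in CD44lo, the neurogenins Neurog1 and Neurog3 at 4.53 and 6.06 in CD44hi and at 4.57 and 6.02 in CD44lo, and Nsg1 was at 6.59 in CD44hi and 6.68 in CD44lo. Phospholamban (Pln), the cardiac counterpart of sarcolipin, was at 5.43 in CD44hi and 5.39 in CD44lo. Pcp4l1 was at 8.05 in CD44hi and 8.18 in CD44lo. The ADP-ribosyltransferase genes Art1, Art4 and Art5 differed by 0.15, -0.04 and -0.14, Sowahc by 0.02 and Synpo2 by 0.08. Over these 12 genes the differences ran from -0.14 to 0.15 and the limma adjusted p from 0.684 to 0.980, and at an unadjusted p under 0.05 the count was also 0. The 12 include no relative of Tnp2 or Nrep. For Tnp2, the spermatid genes Tnp1, Prm1, Prm2 and Prm3 differed by 0.03, 0.12, 0.29 and 0.08. None of them passed, though Prm2 was under 0.05 before adjustment (limma unadjusted p = 0.0130, adjusted p = 0.176).

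Of 26 measured genes of the transmitter release machinery 1 rose and 2 fell, or 11.5%, against 3.81% of all genes. In lists this short each share rests on few calls. Syn1, a synapsin that tethers synaptic vesicles, rose by 1.06 (SE 0.20, limma adjusted p = 0.0179), at 6.56 in CD44hi and 5.50 in CD44lo. Sv2a, a synaptic vesicle glycoprotein, fell by 0.76 (SE 0.10, limma adjusted p = 0.0026), and Vamp2, the vesicle SNARE that complexins engage, fell by 0.36 (SE 0.08, limma adjusted p = 0.0448). The Vamp2 call was kept in 1 and the Syn1 call in 6 of 8 fits that left out 1 array, and the Sv2a call in 8. Snap25, the neuronal membrane SNARE, was bright in both subpopulations (12.59 in CD44hi and 12.66 in CD44lo) and did not pass (limma adjusted p = 0.921).

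Of 27 neurogenic helix-loop-helix genes and Neurog2 targets 1 rose and 1 fell, or 7.41%, against 3.81% of all genes. Id2, an inhibitor of helix-loop-helix factors, rose by 0.54 (SE 0.10, limma adjusted p = 0.0224), and Rnd2, a small GTPase gene induced by Neurog2 in cortical neurons, fell by 0.80 (SE 0.11, limma adjusted p = 0.0038). Rnd2 thus moved in the opposite direction to Neurog2 and kept its call without any 1 array, while Id2 kept it in 3 of 8. The other Id2 probe sets differed by less, 0.29 for one as bright (12.90 in CD44hi and 12.61 in CD44lo) and 0.0005 for a dimmer one (7.88 in both). The Neurog2 targets Hes6 (-0.27) and Dll1 (-0.44) did not pass (limma adjusted p = 0.195 and 0.167).

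The calmodulin, calcium and actin partners mostly did not pass, with shares called of 6.25%, 0% and 20%, against 3.81% of all genes. Camk2d, a calmodulin-dependent kinase, fell by 1.41 (SE 0.23, limma adjusted p = 0.0100), the 1 call among 16 calmodulin genes, and its other probe set differed by -1.10. Of 19 SERCA and calcium release genes 0 passed (limma; 3 at an unadjusted p under 0.05), or Cacna1s alone with the replicate block (0.53, limma adjusted p = 0.0460). The pump gene Atp2a2, a sarcolipin target, was at 13.01 in CD44hi and 13.09 in CD44lo. Among 10 synaptopodin partners and podocyte genes, the actin crosslinker Actn1 rose by 0.66 (limma adjusted p = 0.0230) and the scaffold Magi1 by 0.46 (limma adjusted p = 0.0470). Actn1 kept its call in 3 of 8 fits without 1 array and Magi1 in 0, Magi1 lost it with the replicate block (limma adjusted p = 0.0739), and each gene had other probe sets that differed by under 50% as much.

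Of 15 TGF-beta pathway genes, listed because Nrep is linked to TGF-beta, 2 rose and 1 fell, or 20%, against 3.81% of all genes. The repressor Tgif1 rose by 1.34 (SE 0.11, limma adjusted p = 0.00016) and the ligand Tgfb3 by 0.69 (SE 0.12, limma adjusted p = 0.0133). The feedback inhibitor Smad7 fell by 0.67 (SE 0.13, limma adjusted p = 0.0214). Tgif1 kept its call in 8, Tgfb3 in 6 and Smad7 in 3 of 8 fits without 1 array.

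**Figure D4:**
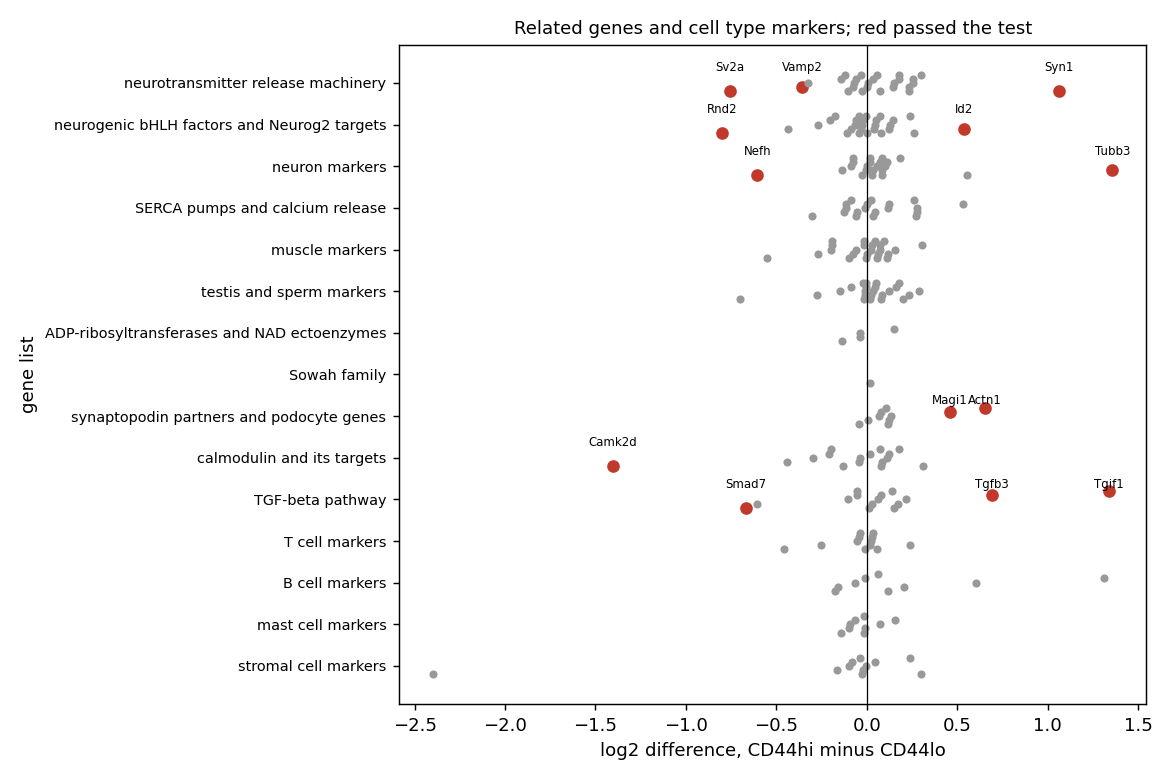
Log2 difference, CD44hi minus CD44lo, of each measured gene in 15 lists of relatives, partners and cell type markers, with the 10 genes themselves left out. Red, named points passed the test (limma adjusted p under 0.05); most points lie within 0.5 of 0, and the muscle, testis, T cell, B cell, mast cell and stromal lists hold no red point.

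Of the marker lists of tissues and cell types only the neuron list held calls, 9.09% of it, against 3.81% of all genes. Of 22 neuron markers the tubulin Tubb3 rose by 1.36 (SE 0.20, limma adjusted p = 0.0056) and the neurofilament Nefh fell by 0.61 (SE 0.14, limma adjusted p = 0.0442), a call kept in 1 of 8 fits without 1 array. With the replicate block Uchl1 also rose (0.55, limma adjusted p = 0.0063). A marker is called at control level where both group means were at or below the highest bacterial control median of the group's arrays. Control probe sets themselves lie on both sides of their median. A marker above this level, if dim, is therefore not shown to be expressed. That held for 4 of the 22 neuron markers (Nefl, Nefm, Rbfox3 and Calb1). The other 18 were above it, among them Eno2 at 13.42 in both subpopulations and Map2 at 5.34 in CD44hi and 5.25 in CD44lo. The summed linear intensity of the list lay between 20790 and 25730 in CD44hi and between 21380 and 23190 in CD44lo. Eno2 and Snap25 (12.59 in CD44hi and 12.66 in CD44lo) made up most of it.

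Of 24 muscle markers 0 passed (limma; 2 at an unadjusted p under 0.05), or Tnnc1 alone with the replicate block (-0.55, limma adjusted p = 0.0162). The list summed to 2818 to 3132 in CD44hi and 3252 to 3326 in CD44lo. Its brightest genes were Tnnc1 (9.72 in CD44hi and 10.27 in CD44lo) and Mylpf (9.53 in CD44hi and 9.22 in CD44lo). Of its 24 genes 5 were at control level in both (Myog, Myf5, Myh1, Myh6 and Tpm2), while the muscle regulator Myod1 was above it at 6.27 in both and Myf6 just above at 4.72 in CD44hi and 4.67 in CD44lo. Of 23 testis and sperm markers 0 passed (limma; 3 at an unadjusted p under 0.05), or Sycp3 alone with the block (-0.70, limma adjusted p = 0.0291). Sycp3 was at control level in CD44hi (4.21) and just above it in CD44lo (4.91), so this difference lies near background. The testis list summed to 10420 to 11720 in CD44hi and 10910 to 11250 in CD44lo. Crem (12.59 in CD44hi and 12.61 in CD44lo) and Odf2 (11.74 in both) made up most of this sum. Of the 23 genes 5 were at control level in both (Dazl, Sycp1, Akap4, Tssk2 and Acrv1). Others were above it, such as the germ cell gene Stra8 at 5.56 in CD44hi and 5.57 in CD44lo. The germ cell gene Ddx4 averaged 5.03 in CD44hi and 4.83 in CD44lo, but was above the controls at replicates 2 and 4 only. At replicates 1 and 3 it read 4.50 and 4.42 in CD44hi and 4.25 and 4.37 in CD44lo, below the control medians of those arrays. Tnp1, the partner of Tnp2 in spermatids, was at 5.02 in CD44hi and 4.99 in CD44lo.

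Of 12 T cell markers 11 were above control level, and 0 passed (limma; 2 at an unadjusted p under 0.05). Of the 11, Cd4 (5.23 in CD44hi and 5.17 in CD44lo) and Cd2 (5.92 in CD44hi and 5.68 in CD44lo) were dim. Their levels were near that of the stromal marker Col1a1 (5.67 in CD44hi and 5.62 in CD44lo). Cd3e was at 13.06 in CD44hi and 13.10 in CD44lo, and Cd8a at 13.86 in CD44hi and 13.87 in CD44lo. Cd5 was at control level, with 4.32 in CD44hi and 4.29 in CD44lo, as was Thy1, which is also in the stromal list, with 4.47 in CD44hi and 4.55 in CD44lo. Of 9 B cell, 9 mast cell and 11 stromal markers 0 passed (limma; 2, 0 and 2 at an unadjusted p under 0.05), or Postn alone with the block (-2.40, limma adjusted p = 0.0017). The B cell list summed to 473.9 to 618.4 in CD44hi and 402.3 to 437.4 in CD44lo, and the mast cell list to 305.5 to 330.1 in CD44hi and 324.1 to 329.3 in CD44lo. The stromal list summed to 5170 to 7499 in CD44hi and 6128 to 7601 in CD44lo, most of it from Fn1 (12.50 in CD44hi and 12.26 in CD44lo). Mast cells also use Cplx2. Of the 9 mast cell markers 4 were at control level in both (Kit, Fcer1a, Ms4a2 and Mcpt4) and Cpa3 in CD44lo. Above it were Gata2 at 6.61 in CD44hi and 6.62 in CD44lo, Hdc at 5.76 in CD44hi and 5.86 in CD44lo, Tpsb2 at 5.48 in CD44hi and 5.50 in CD44lo, and Cma1 at 5.15 in CD44hi and 5.25 in CD44lo. The part of mast cells in the Cplx2 difference was not tested. Cd44, the sorting marker, was at 11.44 in CD44hi and 5.55 in CD44lo, and Smarcb1 was at 6.78 in CD44hi and 6.85 in CD44lo, with the place of its probes relative to the deletion not known here.

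A sign of RNA quality moved with the groups. For Gapdh, the log2 of the 3' over the 5' control probe set was 0.790, 0.877, 0.838 and 0.760 in CD44hi, against 0.683, 0.719, 0.730 and 0.651 in CD44lo (n = 4 each, exact two-sided permutation p = 0.0286, the smallest that 70 assignments allow). For Actb the ratio averaged 0.626 in CD44hi, with an SD of 0.152, and 0.498 in CD44lo, with an SD of 0.105 (n = 4 arrays a group, exact two-sided permutation p = 0.229). Its part in the differences of the 10 genes was not tested.

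Position was examined through the nearest 3 measured genes on each side of each gene in RefSeq gene order (GRCm38.p6), which the choice of genes did not use either. Of these 60 neighbours 3 passed (limma adjusted p under 0.05), or 5%, near the 3.81% of all genes. With the replicate block it was 4, Rhbdf1 beside Nsg2 being added (0.66, limma adjusted p = 0.0162).

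The neighbour that moved with its gene by a like amount was Cxcl10, a chemokine gene that lies inside the span of Art3 on the opposite strand. Cxcl10 read 13.17, 13.05, 13.14 and 12.83 in CD44hi, against 9.16, 8.62, 9.22 and 8.47 in CD44lo. It rose by 4.18 (SE 0.18, limma adjusted p = 3.05e-06), beside 4.22 for Art3, and kept its call without any 1 array. The other CXCR3 ligand genes of the locus did not pass: Cxcl11, a transcribed pseudogene in this assembly and also inside Art3, was at 4.75 in CD44hi and 4.46 in CD44lo, and Cxcl9, just outside, at 3.95 in CD44hi and 3.94 in CD44lo. Nup54, beyond Cxcl11, was at 10.96 in CD44hi and 10.79 in CD44lo. Whether the Art3 probes can pick up transcripts of the chemokine gene was not tested.

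The other neighbours that passed were Shroom1 and Camk2d. Shroom1, an actin-binding protein gene next to Sowaha, rose by 0.45 (SE 0.09, limma adjusted p = 0.0228), a call kept in 3 of 8 fits without 1 array. On the other side of Sowaha lies the T helper 2 cytokine gene Il4, which was at 7.99 ± 0.22 in CD44hi, against 8.25 ± 0.76 in CD44lo (mean and SD, limma adjusted p = 0.880). Camk2d, near Neurog2, fell while Neurog2 was higher. Tnp2 lies between Socs1 and the protamine genes Prm3, Prm2 and Prm1, and these differed by 0.17, 0.08, 0.29 and 0.12 without passing (limma adjusted p = 0.812, 0.911, 0.176 and 0.778), against -2.14 for Tnp2.

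**Figure D5:**
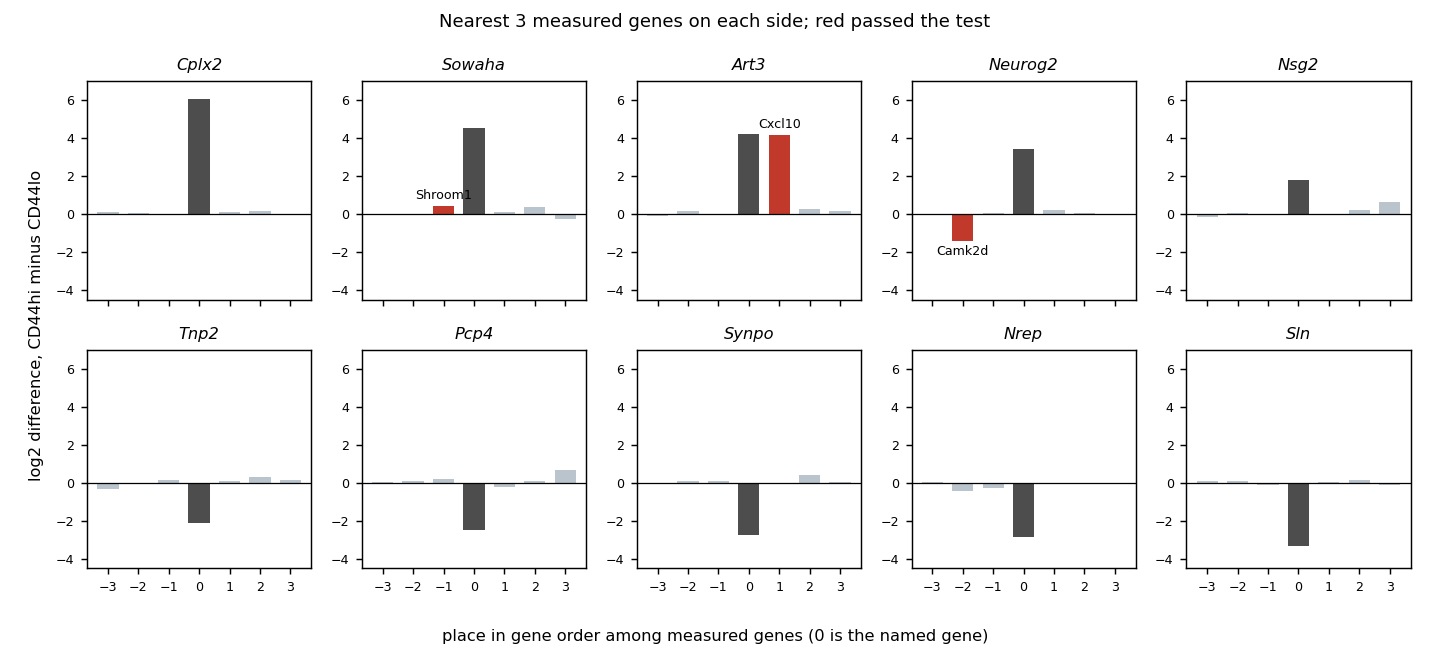
Log2 difference, CD44hi minus CD44lo, of each of the 10 genes (dark bar at place 0) and of the nearest 3 measured genes on each side in gene order, drawn in red where they passed the test. Cxcl10, inside Art3, is the 1 neighbour with a bar as high as its gene's (4.18 beside 4.22), and Shroom1 and Camk2d are the others in red.

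For each gene, the 2 genes outside the list whose log2 values were most alike over the 8 arrays were found by Pearson correlation, a description in which the group difference sets most of the likeness. Neurog2 was most like Socs2 (r = 0.997) and Cd86 (r = 0.995), and Sowaha was most like Socs2 too (r = 0.995), then Hs2st1 (r = 0.992). Cplx2 resembled Nt5dc3 and Adamts1 (r = 0.999 and 0.998), Nsg2 Abhd12 and the cytokine receptor gene Il7r (r = 0.998 and 0.997), and Art3 2210016F16Rik and Pdgfra (r = 0.998 and 0.997). Among the genes lower in CD44hi, Tnp2 was most like Gata3 (r = 0.998), Pcp4 like Ifi209 (r = 0.997), Sln like Oas3 (r = 0.995), Synpo like Pitpnc1 (r = 0.998) and Nrep like Ppm1m (r = 0.990). Second came Aamdc for Tnp2 (r = 0.991), Cgref1 for Pcp4 (r = 0.993) and Tlcd4 for Sln (r = 0.9945). For Synpo it was Rangrf (r = 0.995) and for Nrep Zbtb33 (r = 0.986).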

How the data were processed

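RNA of 4 CD44hi and 4 CD44lo samples was hybridised to 1-colour arrays (Affymetrix Mouse 430A 2.0, per the labels' protocols). The deposited values are intensities per probe set, which the authors obtained by RMA (Robust Multichip Average), per the labels' protocols; version and options are not stated there. The values are linear, with array medians of 320.3 to 339.1, and log2 was taken without a pseudocount. RMA shrinks differences near background.

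The platform annotation gives 20380 of 22690 probe sets a single gene symbol. For the tests, the probe set brightest on average stood for each of 12393 genes, while every probe set of the 10 genes is shown. Groups, taken from the titles, were compared in limma 3.58.1 (R 4.3.3; lmFit, eBayes) without covariates, and p-values were adjusted over all genes by Benjamini-Hochberg. The fit was tested on simulated data.

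Both groups carry the same replicate numbers in the labels. After subtraction of group means, same-numbered arrays correlated over genes at 0.574, 0.404, 0.533 and 0.531 (numbers 1 to 4), and the replicate block takes the numbers as pairs. Unlike numbers that are both odd or both even correlated too (0.372 to 0.521). CD44lo replicate 2 was more like CD44hi replicate 4 (0.458) than CD44hi replicate 2 (0.404). The correlations thus do not single out same-numbered arrays as pairs.

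The 10 genes and the lists were chosen with earlier results of these data known. The genes named are the 10 genes, all listed genes that passed, their nearest paralogs, the neighbours that passed, the 2 most alike genes each, and Cd44, Cd3e, Cd8a and Smarcb1. Other genes named were chosen after their values were seen. Alternatives were other normalizations, a filter on dim genes, every probe set, the replicate block, control sets, reach and leaving out each array. Bacterial and phage controls numbered 45, of which 27 were poly-A controls.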

Additional observations from a re-analysis of the deposited data

Results flagged for a closer look

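In 4 of 56 sets of 4 values, a single array stood far from the rest, where chance flags about 1 in 20. None of these was a value of the 10 genes. Camk2d read 9.95 on CD44lo replicate 2, above 9.05 to 9.18 on its other CD44lo arrays. Syn1 read 6.87 on CD44hi replicate 3, above 6.42 to 6.48 elsewhere in CD44hi. On CD44lo replicate 4, Tgif1 read 9.11, below 9.41 to 9.47 on the remaining CD44lo arrays, and Vamp2 read 9.76, above 9.56 to 9.59.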

How the results depend on the processing

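Of 123 values of the 10 differences under alternatives, 120 moved by less than the spread between replicates. That count is no measure of robustness, since many of the values could hardly move. Leaving out 1 of 4 arrays shifts a group mean by less than the spread. Setting dim arrays at the controls changes nothing for a gene with no array at the controls. With the other probe set, Synpo did not part the subpopulations (0.0435, SE 0.0879, near the controls) and Sln was at -0.342, and Cplx2 was 5.46 with CD44lo set at the bacterial controls. Leaving out 1 array gave 5.96 to 6.11 for Cplx2, 3.24 to 3.63 for Neurog2, 4.07 to 4.33 for Art3, 4.27 to 4.72 for Sowaha, -3.51 to -3.17 for Sln and -2.71 to -2.27 for Pcp4. Higher and lower genes numbered 252 and 220 as reported, 102 and 113 once genes dimmer than the median gene were dropped (fewer genes tested), 382 and 385 with the replicate block, where Magi1 lost its call and Uchl1, Cacna1s, Tnnc1, Sycp3, Postn and Rhbdf1 gained one, and 371 and 334 probe sets with every probe set. With any 1 array dropped, 178 to 230 genes were higher and 127 to 226 lower, the fewest lower ones without CD44lo replicates 2, 3 and 4 (128, 142 and 127). Among listed genes it gave 2 to 8 higher and 3 to 7 lower. Neighbours that passed numbered 2 to 4 when 1 array was left out, and 3 of 100 with the nearest 5 on each side. The 3' to 5' difference was 0.121 for Gapdh and 0.129 for Actb, which did not pass (n = 4 each, exact two-sided permutation p = 0.229). Signal near the controls limits what can be said of Cplx2 and Sowaha in CD44lo and of Sln in CD44hi.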
